A study of Mus musculus with 7 samples.

Results

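The genes described are those of the enzymes that write or erase acetyl and methyl marks on histones and methyl marks on DNA. They were chosen by symbol from the deposited mouse gene table, as every gene whose name begins with Hdac, Sirt, Kdm, Kmt, Kat, Setd, Dnmt or Prmt and a number, together with Tet1, Tet2, Tet3, Ezh1 and Ezh2. This gave 83 of 28666 genes, of which 77 code for proteins and 6 are pseudogenes or antisense genes. The rule uses names and no measured value, although it was set with earlier results of these data known. The RNA came from bone marrow-derived dendritic cells (BMDCs) that the labels call immature (3 libraries) or mature (4 libraries). Per the study's methods, bone marrow of female C57BL/6 mice aged 6 to 8 weeks was grown for 7 days with GM-CSF and IL-4 and co-cultured in a Transwell system with the mouse colon carcinoma line MC38. Cells of both stages were then separated by flow sorting. The results text of the study gives 24 h of the glutamine antagonist DON, and a legend names DMSO or DON at 5 µM, but the labels do not say which agent each library received. Nothing in the labels says whether replicates came from separate mice or cultures, so the p values measure the spread between these libraries, which may be technical.

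Histone acetyltransferases (KATs) add acetyl groups to lysines, a mark of open chromatin, and histone deacetylases (HDACs) and the NAD-dependent sirtuins remove them. Lysine methyltransferases (KMTs, with the Setd and Ezh genes) and lysine demethylases (KDMs) set and erase methyl marks whose effect depends on the residue, for example active promoters at H3K4 and Polycomb silencing at H3K27. DNA methyltransferases (DNMTs) methylate cytosine, TET dioxygenases oxidise that mark, and protein arginine methyltransferases (PRMTs) methylate arginine in histones and other proteins. Several of these enzymes are known to act in dendritic cell and macrophage differentiation and in inflammatory gene control.

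The total count was 54846746 to 67973086 per library. Mature replicate 3 stood apart from the other mature libraries. Its median chi-square per gene against them was 17.7 to 25.6, compared with 4.26 to 5.27 among mature replicates 1, 2 and 4. Dendritic cell markers had a summed FPKM (fragments scaled by gene length and library size, the authors' unit) of 4423 to 8962. Most of this was Cd74, at 3387 to 6029. Flt3 was at 0.04 to 0.09 FPKM in immature and 0.75 to 1.14 FPKM in mature libraries. Zbtb46 was at 2.53 to 2.83 and 10.17 to 12.65 FPKM. Of 10 such markers 7 were higher and 1, Itgax, was lower in mature cells. Macrophage markers were lower in mature cells for 8 of 8 genes, with a summed FPKM of 626 to 650 in immature and 110 to 127 in mature libraries. Cell cycle markers were lower for 9 of 10, from 122 to 132 in immature libraries and from 53.5 to 62.8 in mature libraries. Cardiac muscle genes were at 1.89 to 2.05 in immature libraries, at 12.2 in mature replicate 1 and at 252 to 269 in mature replicates 2 to 4. Of 5 epithelial tumor markers, which MC38 cells could carry, Epcam met the criteria (2.24, adjusted p = 0.00436) at no more than 0.72 FPKM, the other 4 did not pass, and the list summed to 13.8 to 21.6 FPKM. Their part in the enzyme values was not tested. T and B cell, mast cell and neutrophil lists summed to at most 3.76 in any library. In bulk RNA, fewer cells of a type and less RNA per cell cannot be told apart.

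The groups were compared with the quasi-likelihood test of edgeR and Benjamini-Hochberg adjustment over the 17461 genes that passed the filter on low counts. A gene met both criteria when its absolute log2 fold change was at least 1 and its adjusted p was under 0.05. Of the 77 protein-coding enzyme genes 76 were tested, and 8 met both criteria. Higher in mature BMDCs were Hdac11, Kdm4d, Sirt5 and Kdm4a, which is 4 of 76 against 13.2% of all tested genes. Lower were Dnmt3l, Hdac4, Kdm7a and Hdac9, again 4 of 76, against 9.95% of all tested genes. Both shares of the enzymes lay under those of all genes, a difference that was not tested.

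With the adjusted p alone, 20 enzyme genes were higher and 14 lower in mature BMDCs, against 23.2% higher and 22.9% lower among all tested genes. Their median absolute log2 fold change was 0.30, compared with 0.57 over all tested genes. The median signed value was 0.12, compared with 0.05. By limma on log2(FPKM + 1), a test on the authors' own scaling, the split was 24 higher and 7 lower of 67 enzyme genes tested. Among the 11758 genes in that fit it was 31.0% higher and 26.5% lower. FPKM carries no TMM factors, which make counts comparable between libraries. These factors were 0.950 to 0.970 in the immature libraries and 0.964 in mature replicate 3. In mature replicates 1, 2 and 4 they were 1.03 to 1.07. Their part in the split was not tested. In 23 enzyme genes every mature library lay above every immature one, against 25.4% of all tested genes, and in 20 every mature library lay below, against 26.7%. The number past the adjusted p changed as single libraries were left out. It was 51 without mature replicate 3 and 19 without immature replicate 3, compared with 34 in all 7 libraries. Over all tested genes it was 9732, 6429 and 8053 in the same fits.

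**Figure D1:**
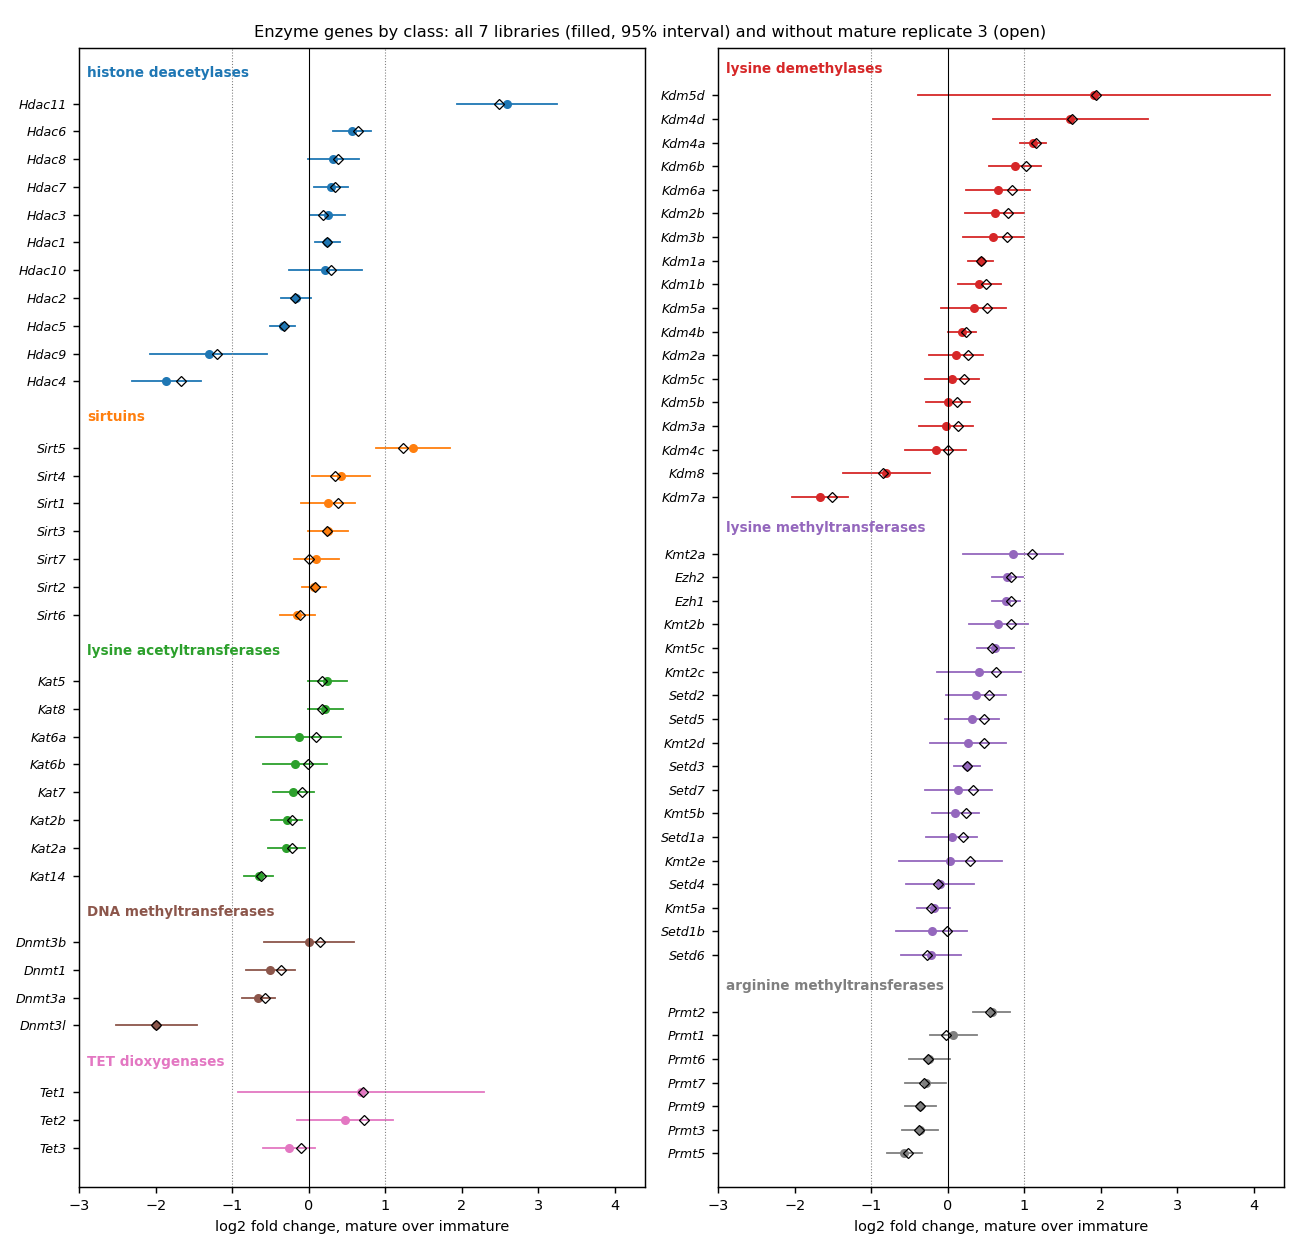
Log2 fold change (x axis, mature over immature) of the 76 tested protein-coding enzyme genes by class, with the 95% interval of the fit of all 7 libraries (filled circle and line) and the value without mature replicate 3 (open diamond). Dotted lines stand at -1 and 1. Hdac11 lies farthest to the right at 2.59 and Dnmt3l farthest to the left at -1.99, while most genes lie within the dotted lines.

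Mature replicate 3 was low in long transcripts, and many enzymes have long ones. The median of the longest annotated transcript was 4503 nt for the enzyme genes and 2922 nt for all tested genes. Across the 76 enzyme genes, the level in mature replicate 3 relative to mature replicates 1, 2 and 4 had a Spearman rho of -0.80 with transcript length, and across 17436 tested genes the rho was -0.40. These are descriptions across genes of the same libraries, which are not independent replicates. The median ratio was 1.12 for the 22 enzyme genes under 3000 nt and 0.631 for the 27 over 6000 nt. The ratio was under 0.8 for 32 of the 76 enzymes (42.1%) and for 29.7% of all tested genes. Kmt2e, at 0.389, Kmt2a, at 0.407, and Tet2, at 0.417, had the lowest ratios among the enzymes. What set this library apart was not tested.

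**Figure D2:**
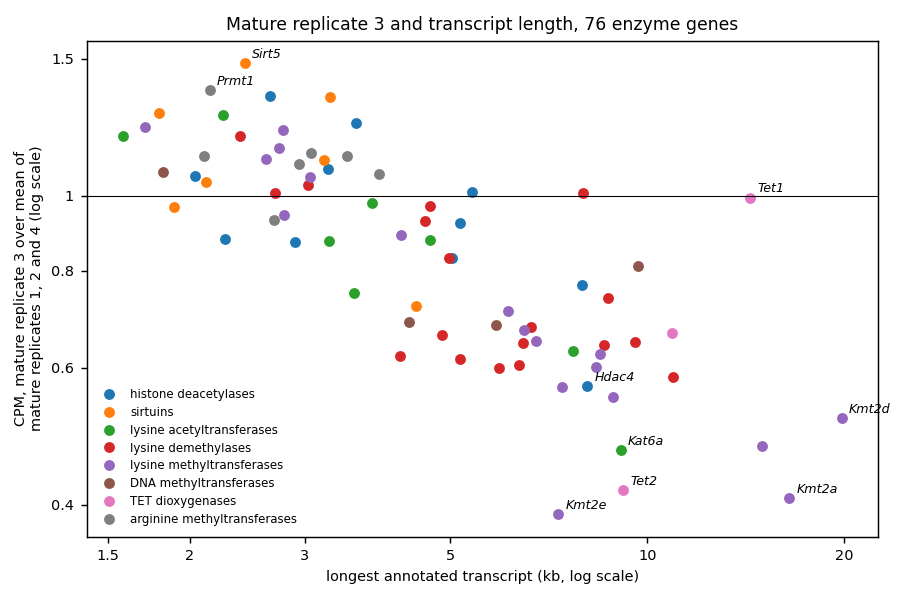
Ratio of the CPM of mature replicate 3 to the mean of mature replicates 1, 2 and 4 (y axis, log scale) against the longest annotated transcript (x axis, kb, log scale) for 76 enzyme genes, coloured by class. Genes over 6000 nt lie below the line at 1, Kmt2e, Kmt2a and Tet2 lowest, except Tet1 and Kdm5d, both of few counts, which lie near it.

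Each library was left out in turn, and the fit without mature replicate 3 is followed here because that library stood apart in these same values. Leaving out the library that deviates most narrows the spread, so the p values of that fit, here and below, are optimistic. Without this library, 6 enzyme genes were higher by both criteria, against 13.2% of the 16954 genes then tested, and 4 were lower, against 10.4%. The 2 genes gained were Kdm6b and Kmt2a. With the adjusted p alone 36 were higher, against 29.1%, and 15 lower, against 28.3%. The median log2 fold change of the enzymes was then 0.225, compared with 0.04 over all genes tested. Genes that did not pass with all 7 libraries but passed without it included Hdac8, Kdm2a, Kmt5b, Setd5 and Setd7, at 0.39, 0.27, 0.23, 0.47 and 0.33 (adjusted p = 0.0427, 0.00166, 0.0191, 7.58e-05 and 0.000591). In 39 enzyme genes all 3 remaining mature libraries lay above the immature ones, against 32.2%, and in 21 they lay below, against 32.9%.

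Promoter windows are shown for 5 of the 8 enzyme genes that met both criteria, 3 higher and 2 lower, so that the sequence at their start sites can be read beside their values. They were chosen after the values were seen. Each holds 300 bases, 250 before and 50 after a RefSeq start (build GRCm38.p6), and is printed from 5′ to 3′ on the strand of the gene. The capitals mark a CCAAT box (CCAAT, or ATTGG on the opposite strand), an ETS core (CCGGAAG) or a match to the kappaB motif. The Hdac11 window is chr6:91156565-91156864 on the plus strand, that of Sirt5 is chr13:43365285-43365584 on the plus strand, and that of Kdm4a is chr4:118179994-118180293 on the minus strand. The Hdac4 window is chr1:92180292-92180591 on the minus strand and lies inside the deposited span of the gene, and that of Kdm7a is chr6:39206724-39207023 on the minus strand.
Hdac11: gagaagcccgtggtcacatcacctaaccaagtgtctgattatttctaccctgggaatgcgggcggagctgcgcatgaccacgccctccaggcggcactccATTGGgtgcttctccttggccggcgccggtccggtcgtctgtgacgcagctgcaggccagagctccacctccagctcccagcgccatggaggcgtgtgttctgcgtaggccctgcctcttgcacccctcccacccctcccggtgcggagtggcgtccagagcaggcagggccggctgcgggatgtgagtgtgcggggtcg
Sirt5: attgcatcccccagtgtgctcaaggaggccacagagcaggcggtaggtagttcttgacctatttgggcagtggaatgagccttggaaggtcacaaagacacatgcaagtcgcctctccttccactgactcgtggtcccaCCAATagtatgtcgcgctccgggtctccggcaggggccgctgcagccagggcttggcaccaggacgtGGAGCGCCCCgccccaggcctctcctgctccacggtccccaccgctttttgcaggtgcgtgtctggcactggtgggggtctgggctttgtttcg
Kdm4a: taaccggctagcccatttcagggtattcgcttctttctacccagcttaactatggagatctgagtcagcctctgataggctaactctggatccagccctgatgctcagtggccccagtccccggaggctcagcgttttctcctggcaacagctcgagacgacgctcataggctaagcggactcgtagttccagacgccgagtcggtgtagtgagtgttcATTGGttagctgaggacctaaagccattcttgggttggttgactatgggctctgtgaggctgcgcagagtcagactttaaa
Hdac4: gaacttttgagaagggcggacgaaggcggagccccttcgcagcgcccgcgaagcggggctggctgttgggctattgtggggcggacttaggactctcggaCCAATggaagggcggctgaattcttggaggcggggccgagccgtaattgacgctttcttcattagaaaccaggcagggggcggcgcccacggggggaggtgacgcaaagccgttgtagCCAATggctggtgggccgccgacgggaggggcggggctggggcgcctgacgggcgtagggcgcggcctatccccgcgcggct
Kdm7a: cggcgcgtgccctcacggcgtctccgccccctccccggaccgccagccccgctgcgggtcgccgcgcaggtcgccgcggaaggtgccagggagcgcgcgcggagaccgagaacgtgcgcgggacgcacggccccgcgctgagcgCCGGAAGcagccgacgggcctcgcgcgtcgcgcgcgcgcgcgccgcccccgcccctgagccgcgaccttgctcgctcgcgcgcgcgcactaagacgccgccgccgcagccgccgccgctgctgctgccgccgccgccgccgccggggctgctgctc

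A CCAAT box lay 150 bases before the start in Hdac11, 111 in Sirt5 and 31 in Kdm4a, and Hdac4 held a pair of them, 150 and 32 bases before its start. Sirt5 held a kappaB match 44 bases before the start, and Kdm7a an ETS core at 106. Genes that were higher and genes that were lower thus both carried CCAAT boxes. Of the 77 coding enzyme genes 64 had RefSeq windows, 90 in all. A CCAAT box on either strand was present in 40% of them and in 37.4% of all 32851 windows. For the ETS core the shares were 14.4% and 8.86%, for the E-box (CACGTG) 10% and 7.15%, for kappaB 13.3% and 8.46%, and for TATAAA 4.44% and 13.6%. The cAMP response element (TGACGTCA) was in 1.11% and 1.79%. The enzyme windows were rich in GC, with a median of 61.5% compared with 52.7% in all windows, and had an observed over expected CpG ratio of 0.793 compared with 0.384. The Kdm7a window, at 82.7% GC with 65 CpG sites, was the richest of the 5 shown. A match of letters describes the window and is no evidence of binding.

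Among the 11 classical histone deacetylases, 4 were higher and 3 lower with an adjusted p under 0.05, against 23.2% and 22.9% of all tested genes. The 3 lower genes were all of class IIa, in which 1 member, Hdac7, was higher. Hdac11, the only class IV deacetylase, known as a fatty deacylase and a regulator of Il10 in antigen-presenting cells, was 6.01-fold higher in mature BMDCs. Its CPM (counts made comparable between libraries by TMM factors) was 0.937, 0.485 and 0.806 in immature replicates 1 to 3 and 3.70, 4.55, 5.54 and 4.13 in mature replicates 1 to 4. Every mature library lay far above every immature one. The log2 fold change was 2.59 (SE 0.29, adjusted p = 0.000112). The level stayed low, at 0.92 to 1.26 FPKM in mature cells, and rested on 27 to 55 counts in immature and 244 to 301 in mature libraries. The gene lies at chr6:91156665-91174692 (GRCm38, as for all genes named here).

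Class IIa deacetylases, which shuttle between cytoplasm and nucleus and act as corepressors of MEF2, fell in 3 of 4 members. Hdac4 (chr1:91928779-92195699) had a CPM of 54.3, 51.2 and 53.0 in the immature libraries and of 16.0, 14.8, 9.25 and 18.0 in mature replicates 1 to 4. It was lower in every mature library, and lowest in replicate 3. Its log2 fold change was -1.86 (SE 0.20, adjusted p = 8.2e-05), and -1.67 without that library. Hdac9 (chr12:34047580-34917095) was a low gene, at 4.09, 3.94 and 2.87 CPM in immature and 0.834, 1.6, 1.19 and 2.22 CPM in mature libraries. The groups did not overlap, and the log2 fold change was -1.31 (SE 0.33, adjusted p = 0.0116). Hdac5 fell by a smaller amount, with a log2 fold change of -0.34 (adjusted p = 0.0046). The fourth member, Hdac7, was higher by 0.29 (adjusted p = 0.0374). The summed FPKM of class IIa was 12.7 to 13.3 in immature and 9.11 to 10.6 in mature libraries.

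Class I deacetylases, the catalytic subunits of the Sin3, NuRD, CoREST and NCoR complexes, made up most of the HDAC transcripts. Their summed FPKM, which carries no TMM factors, was 41.6 to 43.6 in immature and 50.9 to 51.7 in mature libraries. On that scale the groups did not overlap. Hdac1 was the most abundant, at 22.7 to 23.1 FPKM in immature and 28.4 to 30.1 FPKM in mature libraries. It was higher by 0.24 on the log2 scale (adjusted p = 0.0224), although this call was lost without any 1 of the immature replicates or without mature replicate 4 (adjusted p of 0.0505 to 0.0971). Hdac2 had a log2 fold change of -0.17 (adjusted p = 0.14). The ratio of the FPKM of Hdac1 to that of Hdac2 was 2.42 to 2.81 in immature and 3.34 to 3.83 in mature libraries. Hdac3, the catalytic subunit of the NCoR complex, had a CPM of 43.4 to 45.2 in immature and of 50.4, 48.8, 61.8 and 50.6 in mature replicates 1 to 4. Its log2 fold change was 0.25 (adjusted p = 0.0736), and 0.19 (adjusted p = 0.0134) without mature replicate 3, the highest library. Of class IIb, Hdac6, the cytoplasmic tubulin deacetylase, was higher by 0.56 (adjusted p = 0.00272), and Hdac10 differed by 0.22 (adjusted p = 0.437).

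**Figure D3:**
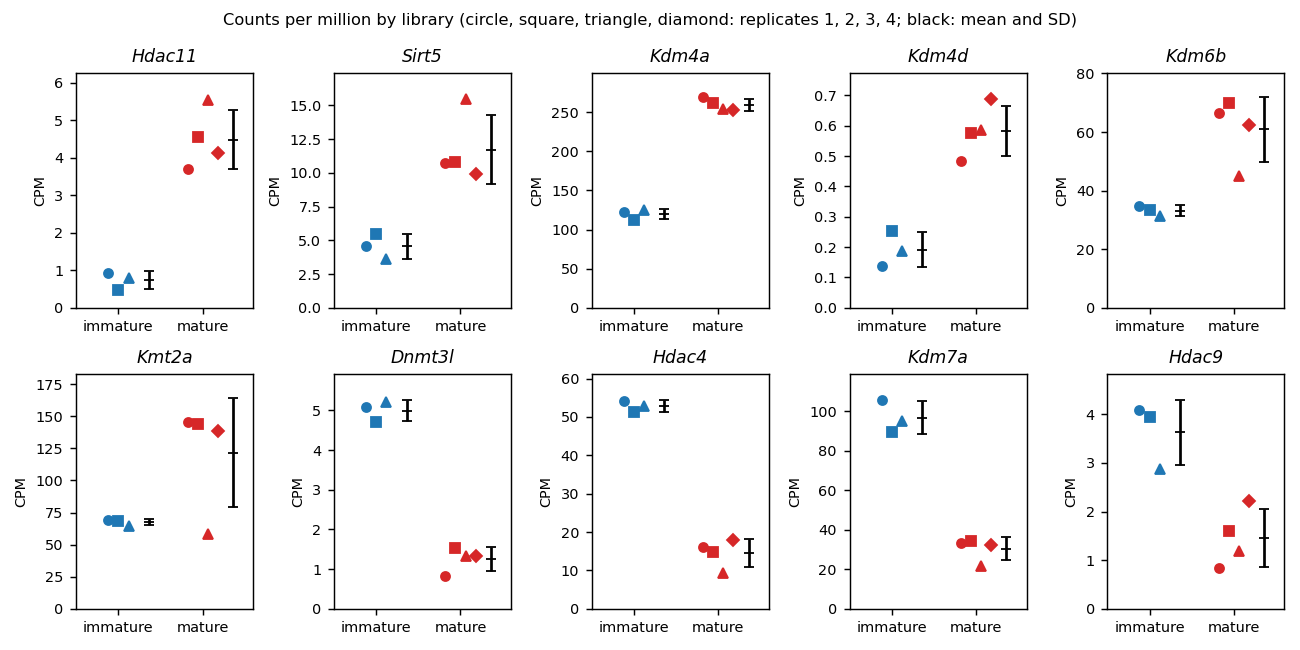
CPM in each library (y axes from 0) of the 8 enzyme genes that met both criteria and of Kdm6b and Kmt2a, which met them without mature replicate 3. Symbols mark the replicate number and black bars the mean and SD of each group, 3 immature (blue) and 4 mature (red) libraries. The groups are apart in 9 of the 10 panels, but the genes were picked for their difference in these same libraries. In Kmt2a mature replicate 3, at 58.2 CPM, lies below the immature libraries.

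Of the 7 sirtuins, 1 was higher and none lower by the adjusted p, against 23.2% and 22.9% of all tested genes. Sirt5, a mitochondrial enzyme that removes succinyl and malonyl groups from lysine, rose 2.57-fold. It had a CPM of 4.58, 5.48 and 3.61 in the immature libraries and of 10.7, 10.8, 15.5 and 9.90 in mature replicates 1 to 4. The groups did not overlap and mature replicate 3 was the highest. On the log2 scale the difference was 1.36 (SE 0.21, adjusted p = 0.000865), and 1.23 without mature replicate 3. The other mitochondrial sirtuins had positive values that did not pass the test, 0.42 for Sirt4 (adjusted p = 0.0678) and 0.25 for Sirt3 (adjusted p = 0.113). Sirt1, the nuclear enzyme that deacetylates p53 and p65, had 21.3 ± 3.01 CPM (SD, n = 3) in immature cells. In mature cells it had 25.4 ± 4.03 CPM (SD, n = 4). Its log2 fold change was 0.25 (adjusted p = 0.214), and 0.38 (adjusted p = 0.0149) without mature replicate 3. Sirt2 was the sirtuin of highest level, at 19.8 to 24.4 FPKM over all libraries, with a log2 fold change of 0.07 (95% interval -0.09 to 0.23). Sirt6 differed by -0.15 (95% interval -0.38 to 0.08) and Sirt7 by 0.10 (95% interval -0.19 to 0.39).

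Of the 8 lysine acetyltransferases none was higher and 3 were lower by the adjusted p, against 23.2% and 22.9% of all tested genes. None met the criterion on size. Kat14, a subunit of the ATAC acetyltransferase complex, had the lowest value. Its CPM was 54, 51.1 and 48.4 in immature and 31.6, 31.3, 31.9 and 35.1 in mature libraries. The groups were well apart and mature replicate 3 lay within its group, with a log2 fold change of -0.66 (SE 0.084, adjusted p = 0.000261). Kat2a and Kat2b, the GCN5 and PCAF enzymes of the SAGA and ATAC complexes, each had a log2 fold change of -0.29 (adjusted p = 0.0483 and 0.0277). Both calls were lost in most of the fits that left out 1 library. With single libraries left out, Kat2a passed without mature replicate 1, and its adjusted p was 0.0535 to 0.18 without any 1 of the others. Kat2b passed without mature replicate 2 or 3, and had an adjusted p of 0.0544 to 0.108 without any 1 of the others. Of the 5 MYST family enzymes none passed, from -0.20 for Kat7, the most abundant at 10.8 to 16.4 FPKM, to 0.24 for Kat5. Kat6a had 73.6 to 79.2 CPM in mature replicates 1, 2 and 4 but 35.7 in replicate 3, and its log2 fold change was -0.13 with that library and 0.10 without it, neither past the test.

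Of the 18 lysine demethylases 8 were higher and 2 lower by the adjusted p, against 23.2% and 22.9% of all tested genes. Without mature replicate 3, 12 were higher and 2 lower, against 29.1% and 28.3%. The summed FPKM of the class was 108 to 118 in immature libraries, 167 to 176 in mature replicates 1, 2 and 4, and 122 in mature replicate 3. Kdm4a (chr4:118136957-118180043), which removes methyl groups from H3K9 and H3K36, accounted for much of this. Its CPM was 123, 112 and 125 in immature and 270, 262, 253 and 253 in mature libraries. The mature values lay within 253 to 270 and at over 2 times the immature ones, also in replicate 3. The log2 fold change was 1.11 (SE 0.076, adjusted p = 6.11e-06). On the FPKM scale Kdm4a was below Setd3, Hdac1 and Sirt2 in each immature library, at 17.4 to 18.8, and above every other enzyme gene in each mature library, at 38.7 to 45.0.

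Of the relatives of Kdm4a only Kdm4d, at a far lower level, also met both criteria. Kdm4d (chr9:14462548-14500482), a gene known for its expression in testis, had 8 to 14 counts in immature and 31 to 43 counts in mature libraries, or 0.136 to 0.252 and 0.485 to 0.688 CPM. Its log2 fold change of 1.6 (SE 0.44, adjusted p = 0.0171) was lost as a call without immature replicate 1 (adjusted p = 0.0646) or immature replicate 3 (adjusted p = 0.0566). Kdm4b had a value of 0.18 (adjusted p = 0.0932), or 0.23 (adjusted p = 0.00863) without mature replicate 3, and Kdm4c of -0.16 (adjusted p = 0.492). Kdm7a (chr6:39136623-39206789), which acts on H3K9 and H3K27, went the opposite way. Its CPM was 106, 89.8 and 94.9 in immature and 33.5, 34.5, 21.6 and 32.3 in mature libraries, with mature replicate 3 lowest. This was a log2 fold change of -1.67 (SE 0.16, adjusted p = 4.42e-05), and -1.51 without that library. Kdm8, a JmjC protein of low level, was the other member that fell, by 0.81 on the log2 scale (adjusted p = 0.0272), from 2.43 to 3.83 CPM in immature to 1.30 to 2.02 CPM in mature libraries.

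Of the 6 demethylases of H3K4, Kdm1a (LSD1), the catalytic partner of the CoREST complex, was higher by 0.43 (adjusted p = 0.00108) and Kdm1b by 0.41 (adjusted p = 0.0242). Kdm5a had 67.8, 60.4 and 60.4 CPM in immature and 87.8, 89.0, 51.7 and 88.9 CPM in mature libraries, so mature replicate 3 fell below all others. Its log2 fold change was 0.34 (adjusted p = 0.172), and 0.52 (adjusted p = 4.89e-05) without that library. Kdm5c, the most abundant of the group at 11.6 to 19.8 FPKM, moved from 0.06 (adjusted p = 0.782) to 0.22 (adjusted p = 0.00335). Kdm5b stayed at 34.4 CPM in both groups, with a log2 fold change of 0.00 (95% interval -0.28 to 0.28). Kdm5d, its Y-linked relative, had 0 to 37 counts per library, although the study's methods name female mice. It is uncertain, since it is close in sequence to Kdm5c, and the origin of its counts was not tested. Its value was 1.91 (adjusted p = 0.155), and it met the criteria without immature replicate 1 (4.16, adjusted p = 0.0182). Kdm2b, which targets H3K36 and a Polycomb complex, was higher by 0.61 (adjusted p = 0.0164), and Kdm3b, an H3K9 demethylase, by 0.60 (adjusted p = 0.0229).

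Both writers and both dedicated erasers of H3K27 methylation were higher in mature BMDCs. Ezh2, the main methyltransferase of Polycomb repressive complex 2 (PRC2), had a CPM of 25.5, 28.3 and 26.7 in immature and 49.7, 44.2, 44.1 and 46.2 in mature libraries. Ezh1, its relative in cells that no longer divide, had 68.8, 66.0 and 68.7 CPM in immature and 116, 125, 105 and 113 CPM in mature libraries. For both genes the groups were far apart and mature replicate 3 lay close to its group. The log2 fold changes were 0.78 for Ezh2 (SE 0.087, adjusted p = 0.000113) and 0.76 for Ezh1 (SE 0.082, adjusted p = 9.13e-05). Ezh1 stayed the more abundant, with an FPKM ratio to Ezh2 of 2.1 to 2.42 in immature and 2.11 to 2.54 in mature libraries, which overlap.

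The erasers Kdm6b (JMJD3, known as induced in inflammation) and Kdm6a (UTX) moved the same way. Kdm6b had 34.9, 33.5 and 31.3 CPM in immature and 66.6, 70.0, 44.9 and 62.3 CPM in mature libraries. All 4 mature values lay above the immature ones, replicate 3 the least. Its log2 fold change was 0.88 (SE 0.15, adjusted p = 0.00149) and 1.02 without that library. Kdm6a had 76.3, 64.5 and 70.7 CPM in immature and 127, 125, 74.0 and 119 CPM in mature libraries, where replicate 3 lay among the immature values. The log2 fold change was 0.66 (SE 0.18, adjusted p = 0.0172). It was lost as a call without immature replicate 2 (adjusted p = 0.0742) or 3 (adjusted p = 0.0588), and was 0.83 (adjusted p = 4.76e-06) without mature replicate 3. In FPKM, the writers summed to 11.3 to 11.7 in immature and 18.3 to 23.0 in mature libraries, and the erasers Kdm6a and Kdm6b to 11 to 12.5 and 13.5 to 24.6. Neither sum says which way the mark itself went, which was not measured.

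**Figure D4:**
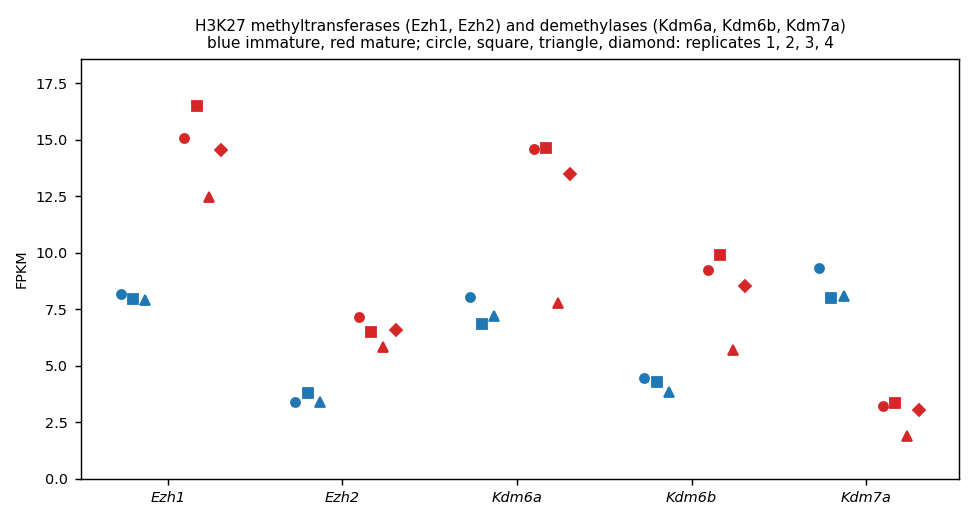
FPKM (y axis, from 0) of the H3K27 methyltransferases Ezh1 and Ezh2 and the demethylases Kdm6a, Kdm6b and Kdm7a in each immature (blue) and mature (red) library, with symbols for the replicate number. Ezh1, Ezh2 and Kdm6b are higher in all mature libraries, Kdm7a is lower in all, and mature replicate 3 (triangle) is the lowest mature library in each of the 5 genes.

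Of the 18 lysine methyltransferases 6 were higher and none lower by the adjusted p, against 23.2% and 22.9% of all tested genes. Without mature replicate 3, 14 were higher and 1 lower, against 29.1% and 28.3%. The summed FPKM of the class was 129 to 137 in immature libraries, 187 to 195 in mature replicates 1, 2 and 4, and 144 in mature replicate 3. Kmt2a (MLL1), which methylates H3K4 at promoters, had 69.2, 68.4 and 64.6 CPM in immature and 146, 144, 58.2 and 139 CPM in mature libraries. Mature replicates 1, 2 and 4 held about 2 times the immature level and replicate 3 less than any immature library. The fit gave a log2 fold change of 0.85 (SE 0.28, adjusted p = 0.0376) in all libraries. Without mature replicate 3 it was 1.11 (SE 0.049, adjusted p = 1.02e-07), past both criteria. Without any 1 of the other 6 libraries the adjusted p was 0.0782 to 0.112.

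Among the other Kmt2 and the Setd1 genes, Kmt2b was higher by 0.66 (adjusted p = 0.012). Kmt2c, at 0.41, Kmt2d, at 0.26, Setd1a, at 0.05, and Kmt2e, a member without known catalytic activity, at 0.03, did not pass with all libraries, and each passed without mature replicate 3, at 0.64, 0.47, 0.20 and 0.30. Setd1b had -0.21 and -0.01 in these fits and passed in neither. Setd2, the enzyme of H3K36 trimethylation, had 84.4 to 88.5 CPM in immature libraries, 119 to 129 CPM in mature replicates 1, 2 and 4 and 74.9 CPM in replicate 3. Its value was 0.37 (adjusted p = 0.117), and 0.54 (adjusted p = 9.65e-06) without that library.

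Among the H4K20 enzymes Kmt5c, which sets the trimethyl mark of heterochromatin, was higher by 0.62 (SE 0.11, adjusted p = 0.00151). Its CPM was 67.6 to 79.7 in immature and 100 to 128 in mature libraries, with replicate 3 highest. Kmt5a, the monomethyltransferase that acts in mitosis, had a value of -0.19 (adjusted p = 0.133), and -0.22 (adjusted p = 0.0196) without mature replicate 3. Setd3, known as the actin histidine methyltransferase, was the most abundant methyltransferase at 22.1 to 30.6 FPKM. It was higher by 0.25 (adjusted p = 0.0253), and not past the test without any 1 of the immature replicates or without mature replicate 4 (adjusted p of 0.0588 to 0.117). Setd6 had a value of -0.22 (adjusted p = 0.331), the lowest of the class.

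**Figure D5:**
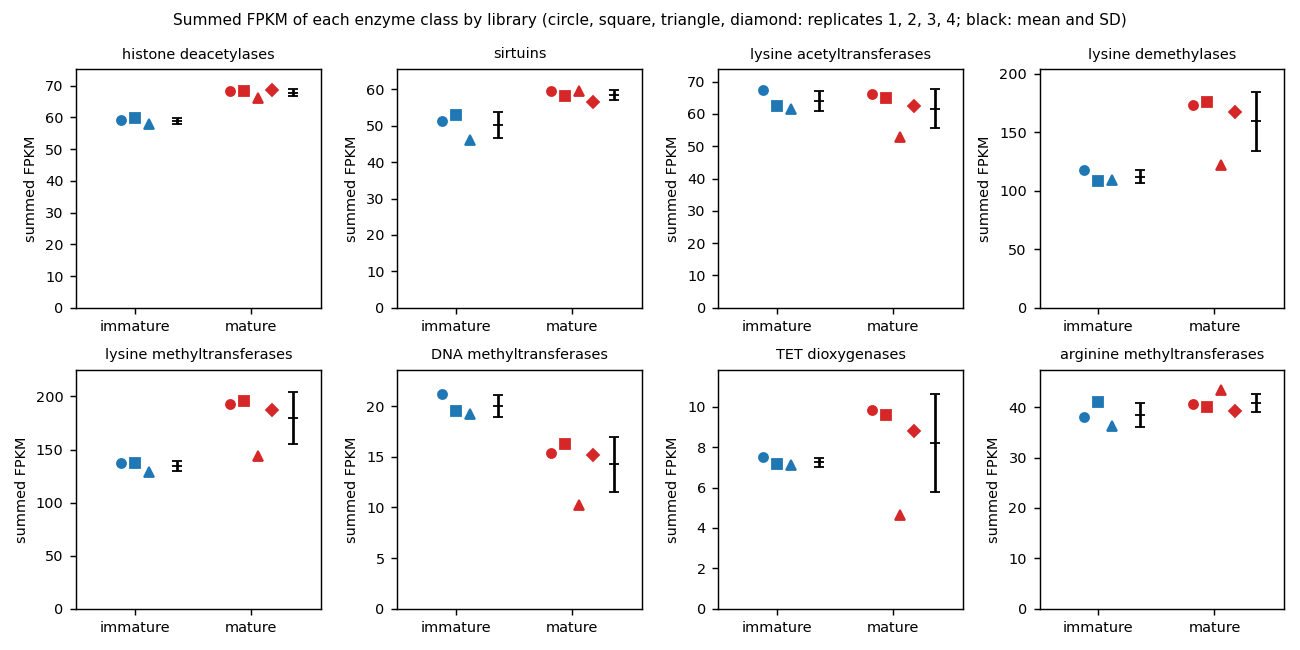
Summed FPKM (y axes from 0) of the protein-coding members of each enzyme class in each immature (blue) and mature (red) library, with symbols for the replicate number and black bars for the mean and SD. The sums carry no TMM factors. Demethylases and methyltransferases of lysine are higher and DNA methyltransferases lower in the mature libraries, and mature replicate 3 (triangle) is the lowest mature library in 6 of the 8 classes and the highest for sirtuins and arginine methyltransferases.

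Of the 4 DNA methyltransferases tested 3 were lower in mature BMDCs by the adjusted p and none higher. The shares of all tested genes were 22.9% lower and 23.2% higher. The class summed to 19.3 to 21.2 FPKM in immature and 10.2 to 16.3 FPKM in mature libraries. Dnmt1, which maintains methylation after replication, had 120, 108 and 112 CPM in immature and 86.5, 89.1, 58.9 and 84.0 CPM in mature libraries. The groups did not overlap, and mature replicate 3 was the lowest. The log2 fold change was -0.51 (SE 0.14, adjusted p = 0.0173), and -0.36 (adjusted p = 0.000331) without that library. Without immature replicate 1 or 3 the adjusted p was 0.0704 or 0.0525. Uhrf1, the protein that brings Dnmt1 to replicated DNA, was also lower, by 0.67 on the log2 scale (adjusted p = 0.00293). The cell cycle markers Mki67, at -2.06, Top2a, at -1.64, and Pcna, at -1.06, were lower in the same libraries (adjusted p = 3.06e-06, 6.12e-05 and 4.69e-05), and their part in these values was not tested.

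Dnmt3a, the de novo enzyme, had 91.2, 86.1 and 87.1 CPM in immature and 57.7, 58.2, 47.5 and 59.3 CPM in mature libraries. The groups were apart, and the log2 fold change was -0.66 (SE 0.095, adjusted p = 0.000515). Dnmt3l (chr10:78041947-78063622), the cofactor of de novo methylation without catalytic activity of its own, was low in both groups and fell most, by 1.99 on the log2 scale (SE 0.23, adjusted p = 0.00016). Its CPM was 5.08, 4.71 and 5.21 in immature and 0.834, 1.54, 1.32 and 1.33 in mature libraries, so every mature library was far below every immature one. Dnmt3b, at 1.64 to 2.62 CPM over all libraries, had a value of 0.01 (95% interval -0.58 to 0.60). Dnmt3c was not tested, with 16 counts in immature replicate 1 and none in the other libraries.

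None of the 3 TET dioxygenases passed with all 7 libraries, and 1 passed without mature replicate 3. Of all tested genes 23.2% were higher and 22.9% lower with all 7, and 29.1% and 28.3% without that library. Tet2, the main TET enzyme of myeloid cells, had 52.8, 48.3 and 51.4 CPM in immature and 86.4, 81.3, 34.4 and 80.0 CPM in mature libraries. Mature replicates 1, 2 and 4 lay well above the immature libraries and replicate 3 below them. On the log2 scale the difference was 0.47 (SE 0.28, adjusted p = 0.198), and 0.72 (SE 0.057, adjusted p = 4.48e-06) without replicate 3. Tet3 had 87.5 ± 1.52 CPM (SD, n = 3) in immature cells and, in mature cells, 73.3 ± 14.1 CPM (SD, n = 4), with a value of -0.25 (adjusted p = 0.195) and of -0.10 (adjusted p = 0.149) without replicate 3. The ratio of Tet2 to Tet3, in FPKM, was 0.555 to 0.587 in immature libraries, 0.985 to 1.06 in mature replicates 1, 2 and 4 and 0.641 in mature replicate 3. This ratio thus lay above the immature range in every mature library. Tet1 had 4 to 28 counts per library and a value of 0.68 (95% interval -0.93 to 2.29).

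Of the 7 arginine methyltransferases 1 was higher and 3 were lower by the adjusted p, against 23.2% and 22.9% of all tested genes. Prmt2, a coactivator of nuclear receptors, had 24.5, 26.0 and 20.9 CPM in immature and 32.7, 34.7, 38.5 and 35.5 CPM in mature libraries. It was higher in every mature library, by 0.57 on the log2 scale (SE 0.11, adjusted p = 0.00235). Prmt5, the main enzyme of symmetric dimethylarginine, had 28.2, 31.6 and 29.0 CPM in immature and 18.8, 19.6, 18.9 and 22.7 CPM in mature libraries. It fell by 0.57 (SE 0.10, adjusted p = 0.00175), and mature replicate 3 lay within its group. Prmt3, a ribosomal protein methyltransferase, and Prmt9 each fell by 0.36 (adjusted p = 0.0176 and 0.00914). Prmt1, the main enzyme of asymmetric dimethylarginine and the most abundant of the class at 14.4 to 20 FPKM, had 59.1 ± 2.22 CPM (SD, n = 3) and 62.1 ± 11.2 CPM (SD, n = 4). Its value was 0.07 (95% interval -0.23 to 0.38). Prmt6 and Prmt7 had -0.24 and -0.29 and did not pass. Without mature replicate 3 Prmt7 passed, at -0.31 (adjusted p = 0.038), which made 4 lower, against 28.3% of all genes then tested. The class summed to 36.2 to 41.0 FPKM in immature and 39.3 to 43.5 FPKM in mature libraries, which overlap. By CPM, which unlike FPKM uses TMM factors, 5 of the 7 lay lower in every mature library than in every immature one. The share of all tested genes was 26.7%. In 1 of the 7 every mature library lay higher, against 25.4%.

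Of the 6 pseudogenes and antisense genes 3 were tested and none passed. Hdac1-ps, a pseudogene of Hdac1 whose counts are uncertain since the 2 may be similar in sequence, had 5.34 to 7.51 CPM over all libraries. Dnmt3aos and Kdm6bos, which overlap Dnmt3a and Kdm6b on the other strand, had at most 0.449 CPM, and are uncertain since the sources used here do not say whether the counting used strand. Kdm4dl had 0 counts in every library, and Kat2b-ps and Dnmt3l-ps1 at most 2 and 4.

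The partners of these enzymes were followed in a list of 85 genes, the subunits, readers and other writers and erasers of the same marks. All were tested, and 24 were higher and 16 lower by the adjusted p, with 5 and 3 past both criteria. Those shares stand beside 23.2% and 22.9% of all tested genes by the adjusted p, and 13.2% and 9.95% by both criteria. Without mature replicate 3 the numbers were 44 higher and 18 lower by the adjusted p, against 29.1% and 28.3% of all tested genes, and 6 and 2 by both criteria. Polycomb genes held several of the largest values. Cbx7, a chromodomain reader of H3K27 methylation in PRC1, had 12.5 to 13.4 CPM in immature and 73.1 to 85.3 CPM in mature libraries (log2 fold change 2.63, adjusted p = 3.04e-07). Of the same complex Phc1 was higher by 1.98 (adjusted p = 3.93e-06) and Pcgf5 by 1.72 (adjusted p = 9.47e-07). In PRC2, the accessory subunit Aebp2 was higher by 1.41 (adjusted p = 2.65e-06) and Phf19 had a value of -1.24 (adjusted p = 0.000219).

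The core subunits of PRC2 other than Ezh1 and Ezh2 moved less. Eed had -0.22 and Suz12 0.29, neither past the test. Without mature replicate 3 both passed, at -0.24 (adjusted p = 0.022) and 0.40 (adjusted p = 0.000118). Rbbp7 was higher by 0.37 (adjusted p = 0.00375). Of the deacetylase corepressors Chd3, a NuRD remodeller, was higher by 1.38 (adjusted p = 0.0006) and Rcor1, the CoREST scaffold that binds Kdm1a and Hdac1, had -1.06 (adjusted p = 0.00167), or -0.89 without mature replicate 3. Kdm1a and Rcor1 thus had opposite signs. Of 7 other acetyltransferases, Ep300 and Crebbp did not pass, at -0.22 and 0.37. Without mature replicate 3 Crebbp passed, at 0.55 (adjusted p = 0.000213), and Ep300 was at 0.01 (adjusted p = 0.9). Hat1 was higher by 0.59 (adjusted p = 0.00225) and Clock had -0.97 (adjusted p = 0.000647). Among 14 further lysine methyltransferases the H3K9 enzymes Ehmt2, Suv39h1 and Suv39h2 were higher by 0.51, 0.70 and 0.81 (adjusted p = 0.000351, 0.00039 and 0.00964). The H3K9 enzymes Ehmt1, Setdb2 and Setdb1 did not pass, at 0.32, 0.44 and -0.25 (adjusted p = 0.0538, 0.0922 and 0.226). Without mature replicate 3 Ehmt1 and Setdb2 passed, at 0.44 and 0.62 (adjusted p = 5.77e-05 and 0.000155), and Setdb1 did not. The H3K79 enzyme Dot1l had -0.54 (adjusted p = 0.00556). Tdg, the glycosylase that removes oxidised methylcytosine made by TET enzymes, was lower, at -0.83 (adjusted p = 3.27e-05).

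The cardiac muscle list was lower in mature replicate 1 than in the other mature libraries. At 12.2 FPKM, with Tnni3 alone at 11.18, it was still above the immature libraries. With mature replicate 1 alone against the immature libraries, the 8 enzyme genes kept their direction. That fit assumed the lone mature library to vary like the immature ones. With mature replicates 2 and 4, where the list was at 252 to 255 FPKM, 7 of the 8 met both criteria (Hdac9 did not), with Kdm6b and Kmt2a. The 8 genes were called in a fit that held these same libraries, so neither fit is independent support for the calls. The part of the cardiac signal in the enzyme values was not tested.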

How the data were processed

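RNA-seq of 3 immature and 4 mature BMDC libraries was analysed, with groups and replicate numbers taken from the labels and the culture conditions from the study's methods. The authors deposited raw whole-number gene counts and FPKM values rounded to 2 decimals, which scale fragments by gene length and library size. The submitters' processing notes name cutadapt 1.9, HISAT2 2.2.1, StringTie 2.1.6, DESeq2, edgeR and the build mm9. The deposited coordinates equal those of GENCODE M21 on GRCm38 for 25805 of 28588 genes with an entry, among them 71 of the 83 enzyme genes, so coordinates are given as GRCm38. Whether the counting used strand is not given in the sources used here.

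Enzyme genes were taken by symbol. The members, classes and lists were chosen with earlier results of these data known. The test was that of edgeR 4.0.16 under R 4.3.3 (its filter on low counts, TMM factors and the quasi-likelihood test), with Benjamini-Hochberg adjustment over all tested genes and criteria of 1 on the log2 scale and an adjusted p of 0.05. Standard errors were derived from the F statistic (log2 fold change over its square root). The script was tested on simulated data. Total counts of 54846746 to 67973086 per library bear on counting error only. CPM compares a gene between libraries, and FPKM compares genes. Class sums of FPKM are given per library without TMM factors. Named were the enzyme genes past the criteria, in each class the most abundant and those with the highest and lowest log2 fold change, and 19 genes listed by name, such as Dnmt1, Tet2, Ezh2, Kdm6a and Kmt2a. Other genes were named to complete a class or list, after their values were seen. The values of 1 partner gene are not reported here. Alternatives were DESeq2 1.42.0, RLE factors, limma 3.58.1 on log2(FPKM + 1) and log2(FPKM + 0.1) where FPKM reached 1 or more in 3 libraries, that filter with edgeR, no filter, other fold criteria, each library left out, mature replicate 1 alone, mature replicates 2 and 4 alone, and a replicate block. Promoter windows come from RefSeq on GRCm38.p6, and figures were drawn with matplotlib 3.10.9 in Python 3.11.15.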

Additional observations from a re-analysis of the deposited data

Results flagged for a closer look

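In 11 of the 40 enzyme genes named by rule, 1 mature library lay farther from the others than Dixon's 95% limit for 4 samples. Chance would give about 1 in 20, or 2, if genes were independent. In all 11 that library was mature replicate 3, low in 9 and high in 2. The 11 flags are thus not independent, and the share of all tested genes past this limit was not counted. The gap to the nearest library over the range of the group was 0.864 for Dnmt3a, 0.967 for Kdm5a, 0.834 for Kdm5b, 0.899 for Kdm5c, 0.839 for Kdm6a, 0.832 for Kdm7a, 0.92 for Kmt2a, 0.83 for Setd2 and 0.876 for Tet2, which were low there. It was 0.863 for Hdac3 and 0.835 for Sirt5, which were high. The longest transcripts of the 9 low genes are 5935 to 16470 nt, and those of Hdac3 and Sirt5 are 3585 and 2425 nt. The part of transcript length in these values was not tested.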

How the results depend on the processing

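The 8 enzyme genes past both criteria kept their direction in each alternative that tested them. All 8 met both criteria with DESeq2, RLE factors or no filter. The number was 3 with limma on log2(FPKM + 1), and 24 with a criterion of 0.5. In that limma fit Hdac9 and Kdm4d failed the FPKM filter and were not tested. Dnmt3l, Hdac11 and Sirt5, all under 3 FPKM, stayed past the adjusted p but at -0.83, 0.84 and 0.76, since the pseudocount shrinks the change of low genes. The enzyme count past the adjusted p ranged from 19 to 51 without single libraries and was 52 with mature replicates 2 and 4. Over all genes the count of 4037 became 2665 with the FPKM filter, 1768 and 2561 with limma at pseudocounts of 1 and 0.1, and 8053 without the fold criterion. Partner genes past the criteria went from 8 to 5 with limma on log2(FPKM + 1). Of enzyme calls by the adjusted p 58.8% were higher (50.3% of calls over all genes). The share was 77.4% with limma on FPKM, which carries no TMM factors (53.9% over all genes). It was 70.6% without mature replicate 3 (50.7%), and was lowest, 52.2%, without immature replicate 2 (49.0%). Kat2a lost its call with DESeq2 (adjusted p = 0.0505). The cause of the other changes was not tested.

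Both groups carry replicate numbers 1 to 3, but same-numbered samples did not deviate together (correlations of 0.109, -0.132 and 0.0737). With a replicate block 7 enzyme genes met both criteria (Kdm4d did not), 23 passed the adjusted p (14 higher and 9 lower), and 3616 of all genes and 9 partner genes met the criteria. Values near 0 changed sign. Under the replicate block they were -0.054 for Dnmt3b, -0.035 for Kdm5b and -0.023 for Kdm5c. Without single libraries Dnmt3b ranged from -0.18 to 0.15, Kdm5b from -0.038 to 0.12 and Prmt1 from -0.030 to 0.14. Prmt1 was -0.11 with mature replicates 2 and 4, and Tet1 -0.80 with mature replicate 1 alone. None of these passed the test. Depth limits Kdm4d, Kdm5d and Tet1, all at most 43 counts in a library.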
